A study of Mus musculus with 2 samples.

Results

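RNA of 10 genes that mark macrophages and other leukocytes was followed in P0 ureter explants in which SHH signaling was inhibited. The genes were Csf1r, Cd68, Lyz2, Mrc1, C1qa, C1qb, C1qc, Cx3cr1, Ptprc and Cd14. The rule takes all probes that the array file assigns to these gene names. This step uses no measured value, but the genes were named with earlier results of these data known. It gave 15 probes for 10 of the 19398 genes tested. Where a gene had several probes, the brightest stood for it, and that choice does use the measured intensities.

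The explants came from wildtype NMRI newborns (P0). Ureters were cultured for 18 h in medium with 10 µM cyclopamine, a plant alkaloid that inhibits the SHH signal transducer SMO, or in medium with the solvent DMF at 1:1000. RNA from pooled ureters was hybridised to 2 two-colour oligonucleotide arrays. Replicate 1 compared female pools, with the control in the green channel (AlexaFluor555) and cyclopamine in the red channel (AlexaFluor647). Replicate 2 compared male pools with the dyes swapped. Sex, dye orientation and replicate therefore cannot be told apart. A channel name in the labels gives the WNT inhibitor IWP-2 for the treated RNA, whereas the titles, the treatment entries and the protocol give cyclopamine. The samples were taken as cyclopamine. The drug acts on the whole explant, and the RNA is that of the whole ureter. Fewer leukocytes and less RNA per leukocyte cannot be told apart in such samples.

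Macrophages seed most fetal organs before birth and persist there by local division. Their survival depends on CSF1R, the receptor tyrosine kinase for the growth factors CSF1 and IL34. Resident cells are recognised by the scavenger and lectin receptors they carry and by the complement protein C1q, which they secrete in large amounts. C1q consists of A, B and C chains, which are encoded by neighbouring genes and assemble into a single molecule that binds immune complexes and dying cells. CD45, the product of Ptprc, is a phosphatase on all nucleated blood cells and is not restricted to macrophages. Lyz2 and Cd14 are shared with monocytes and neutrophils, and Mrc1 is also found on some endothelial cells.

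The C1q genes were each read by 1 probe of 60 bases, and those of C1qa and C1qb, through which an open reading frame runs, are shown with those of Lyz2 and Ptprc because they define what the signal of each gene stands for. Positions are those of the array annotation (mm9), which names no exon or UTR. In the C1q probes the capitals mark the longest run of bases that they share.
C1qa, minus strand of chr4:136452409-136452468, GC content 55%: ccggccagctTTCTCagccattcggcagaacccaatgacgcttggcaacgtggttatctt
C1qb, minus strand of chr4:136436578-136436637, GC content 55%: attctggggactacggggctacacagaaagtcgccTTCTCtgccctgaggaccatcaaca
Lyz2, minus strand of chr10:116719175-116719234, GC content 45%: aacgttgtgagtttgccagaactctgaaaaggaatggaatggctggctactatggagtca
Ptprc, minus strand of chr1:139961083-139961142, GC content 55%: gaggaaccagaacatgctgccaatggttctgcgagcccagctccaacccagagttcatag
The C1qa and C1qb probes shared no run longer than 5 bases, and either of them shared at most 6 bases with the C1qc probe (chr4:136445766-136445825). The 3 probes lie within 15.9 kb. Over all probes of different markers the longest shared run was 9 bases. The signals of the 3 chains thus came from separate sequences.

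The promoters of C1qb and C1qc, from 250 bases before to 50 bases after the start of the gene, are shown for the C1q chains. No promoter was available for C1qa. Ratios of one sign on both arrays did not single out these chains, since C1qa, Cd68, Lyz2 and Cx3cr1 had them too. The promoters were taken from RefSeq (GRCm38.p6, a later build than that of the probes). The capitals mark GAGGAA on either strand, the core of the motif bound by PU.1, the transcription factor that directs myeloid development.
C1qb, minus strand of chr4:136886151-136886450: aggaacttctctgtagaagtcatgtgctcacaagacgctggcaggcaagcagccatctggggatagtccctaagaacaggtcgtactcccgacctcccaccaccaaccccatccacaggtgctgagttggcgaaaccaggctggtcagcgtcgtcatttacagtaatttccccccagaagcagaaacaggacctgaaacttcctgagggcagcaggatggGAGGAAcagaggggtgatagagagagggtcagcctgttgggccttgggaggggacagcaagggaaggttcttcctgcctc
C1qc, minus strand of chr4:136892865-136893164: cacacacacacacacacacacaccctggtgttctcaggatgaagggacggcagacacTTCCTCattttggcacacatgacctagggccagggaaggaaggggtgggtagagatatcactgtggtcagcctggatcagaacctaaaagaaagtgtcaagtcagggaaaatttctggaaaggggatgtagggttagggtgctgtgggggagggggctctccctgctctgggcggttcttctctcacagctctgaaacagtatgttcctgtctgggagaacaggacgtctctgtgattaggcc
The C1qb promoter held 1 match, which begins 30 bases before the start. The C1qc promoter held 1 match on the other strand, 193 bases before the start. The promoter table matched 7 of the 10 markers with 8 promoters, and 5 of these 8 held the motif (1 each of C1qb, C1qc, Cd68, Mrc1 and Ptprc), whereas those of Cx3cr1 and Lyz2 did not. Of all 32851 promoters of the same length 28.3% held it. A match is a run of letters, and binding was not measured.

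All 15 probes were well above background in every spot of all 4 channels, so each of the 10 markers was detected in female and male explants with and without cyclopamine. The processed intensities of the arrays were not on a common scale. Control signals had an upper quartile of 3338 on replicate 1 but of 628 on replicate 2, a factor of 5.32, and levels are therefore compared within an array. The treatment itself was readable on both arrays. All 5 SHH targets examined were called lower by limma, among them Gli1, the transcriptional read-out of the pathway, with log2 ratios of -1.83 and -2.09 (adjusted p = 1.76e-08). The paper had already listed all 5 as reduced on these same arrays, so they are no independent check of the treatment. Hhip was weak on replicate 1 (-0.31, against -1.99 on replicate 2). It did not pass the filter of the study as applied here to each array, which the other 4 did. The paper's own list of genes with reduced expression holds Hhip. The calls of Hhip and Foxf1 were lost with normexp background correction (adjusted p = 0.159 and 0.0719 in limma). The calls of all 5 were lost with the series table (adjusted p from 0.511 to 0.556) and with the channels as separate samples (from 0.513 to 0.991), while all 5 kept ratios below 0.

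None of the 10 markers was called in either direction. limma, with Benjamini-Hochberg adjustment over the 25975 probes tested, called 0.77% of probes lower and 0.454% higher, and among the 10 markers it called 0 lower and 0 higher. No marker reached an unadjusted p under 0.05, against 9.39% of all probes tested. The lowest adjusted p of a marker probe in limma was 0.639 (Cx3cr1). The filter of the study, a control intensity over 100 and a change of at least 1.5-fold, was applied here to each array. It took 0.63% of the 13661 genes bright enough as lower and 0.212% as higher. It took 0 of the 9 markers bright enough in either direction. Ptprc fell under the fixed limit on replicate 2, the array with the lower intensity scale. Divided by the upper quartile of its array, the Ptprc control level was 0.041 on replicate 1 and 0.044 on replicate 2. The precision of 2 arrays was low. The limma standard error of a mean log2 ratio was 0.226 to 0.233 for the markers, and the 95% confidence intervals reached from 0.561-fold (Cx3cr1) to 1.55-fold (Ptprc). The smallest mean log2 ratio that limma called among all probes was 0.83 in size. No probe with a smaller observed mean was called. This size describes observed means and sets no limit on the true change that the test could detect.

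Without a test, the markers fell into those with ratios of one sign and those with opposite signs on the arrays. Each marker was read here by its brightest probe. Cd68, Lyz2, C1qa, C1qb, C1qc and Cx3cr1 had ratios below 0 on both arrays, 6 of 10 markers, where 28.9% of all genes tested had this pattern. None of the 10 was above 0 on both arrays, where 28.6% of all genes were. Csf1r, Mrc1 and Ptprc were above 0 on replicate 1 and below 0 on replicate 2, as were 21.1% of all genes. Cd14 was below 0 on replicate 1 and above 0 on replicate 2, as were 21.3% of all genes. The median log2 ratio over the 10 markers was -0.23 on replicate 1 and -0.15 on replicate 2. The medians over all genes tested were -0.0026 and -0.0002.

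**Figure D1:**
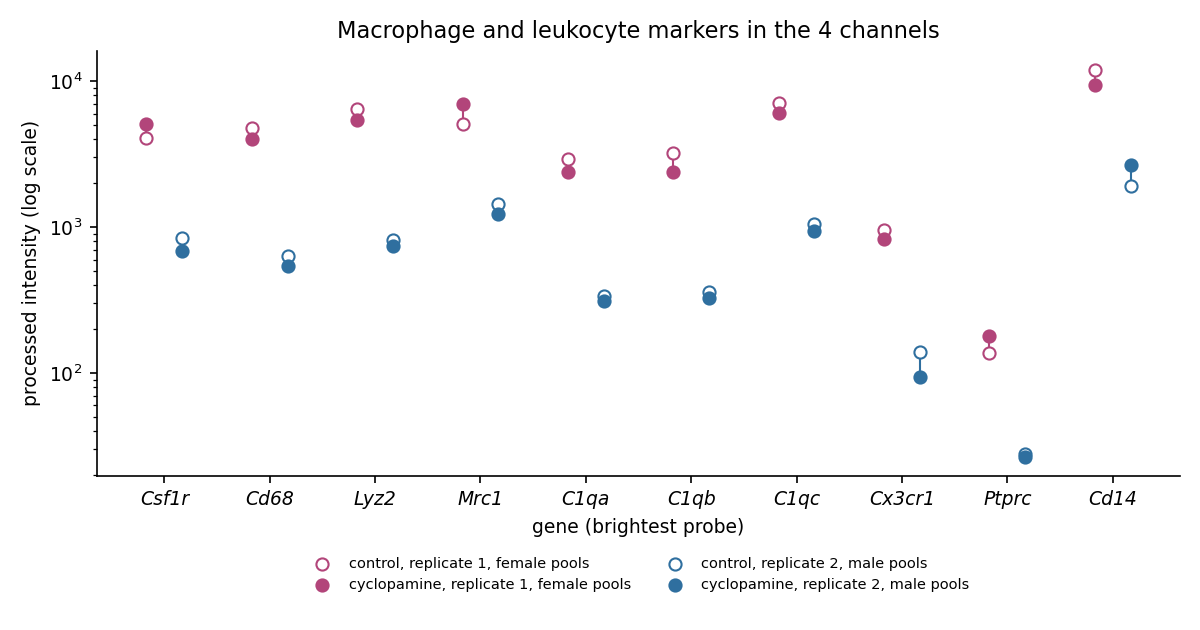
Processed intensity (log axis) of the brightest probe of each marker in the control (open) and cyclopamine (filled) channel of replicate 1 (female pools) and replicate 2 (male pools), 1 value per channel. The lines join the channels of an array; for Cd68, Lyz2, the C1q genes and Cx3cr1 the filled point lies below the open point on both arrays, and the level of an array as a whole is not comparable with that of the other.

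The C1q chains had ratios below 0 on both arrays, and none was called. C1qa had an intensity of 2952 in control and 2398 in cyclopamine on replicate 1, and of 335 and 311 on replicate 2. C1qb had 3198 and 2400 on replicate 1, and 358 and 327 on replicate 2. C1qc had 7124 and 6098 on replicate 1, and 1045 and 935 on replicate 2. In all 6 pairs the cyclopamine channel was the lower of its array. The log2 ratios on replicates 1 and 2 were -0.30 and -0.11 for C1qa, -0.41 and -0.13 for C1qb, and -0.22 and -0.16 for C1qc. The means were -0.20 ± 0.14, -0.27 ± 0.20 and -0.19 ± 0.05 (SD, n = 2 arrays). limma gave adjusted p values of 0.818, 0.742 and 0.829, and each interval included 0, with bounds of -0.66 and 0.25 for C1qa, -0.73 and 0.18 for C1qb, and -0.65 and 0.26 for C1qc.

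Cd68 and Lyz2 encode proteins of the endolysosomal system, the lysosomal glycoprotein macrosialin and the bactericidal enzyme lysozyme. The brightest Cd68 probe had an intensity of 4749 in control and 4017 in cyclopamine on replicate 1, and of 639 and 544 on replicate 2. Both arrays thus gave almost the same ratio, -0.24 and -0.23 on the log2 scale, with a mean of -0.24 and a limma interval from -0.69 to 0.22 (adjusted p = 0.779). The other Cd68 probe gave -0.33 and -0.12. Lyz2 had 6454 and 5419 on replicate 1 and 823 and 743 on replicate 2. Its log2 ratios were -0.25 and -0.15, with a limma interval from -0.65 to 0.25 (adjusted p = 0.822).

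Cx3cr1, the receptor for the chemokine fractalkine, had the lowest mean log2 ratio of the markers, but its probes disagreed. The brightest probe had an intensity of 948 in control and 833 in cyclopamine on replicate 1, and of 139 and 93.6 on replicate 2. Its log2 ratios were -0.19 and -0.57, with a mean of -0.38 ± 0.27 (SD, n = 2 arrays) and a limma interval from -0.83 to 0.08 (adjusted p = 0.639). On replicate 2 this was just short of the 1.5-fold limit. A probe that overlaps it by 55 bases gave -0.16 and -0.50 and is no independent reading. The third and dimmest probe lies further 5′ in the transcript and had intensities of 354 and 633 on replicate 1, and of 99.9 and 82.2 on replicate 2. Its log2 ratios were 0.84 and -0.28, so that on replicate 1 the Cx3cr1 probes pointed in opposite directions.

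Csf1r had an intensity of 4084 in control and 5116 in cyclopamine on replicate 1, and of 840 and 687 on replicate 2. The order of the channels was thus turned between the arrays. The log2 ratios were 0.33 and -0.29, with a mean of 0.02 ± 0.43 (SD, n = 2 arrays) and a limma interval from -0.44 to 0.48 (adjusted p = 0.988). The 2 other Csf1r probes gave 0.35 and -0.12, and 0.43 and -0.10. All 3 probes therefore had the same signs, and the disagreement lay between arrays and not between probes.

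Mrc1, which encodes the mannose receptor CD206 of resident macrophages, had 5071 in control and 7018 in cyclopamine on replicate 1, and 1446 and 1237 on replicate 2. The log2 ratios were 0.47 and -0.23, with a limma interval from -0.34 to 0.59 (adjusted p = 0.903). Ptprc, which encodes CD45, was the dimmest reading, with 136 and 179 on replicate 1 and 27.8 and 26.8 on replicate 2. Its log2 ratios were 0.39 and -0.05, with a limma interval from -0.29 to 0.63 (adjusted p = 0.853). The SD between spots of this probe was 0.14 on replicate 1 and 0.10 on replicate 2 on the log2 scale, so that the ratio of replicate 2 was within the spread of its own spots.

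Cd14, the co-receptor for bacterial lipopolysaccharide, was the only marker with a higher level in cyclopamine on replicate 2. It had 11916 in control and 9441 in cyclopamine on replicate 1, and 1908 and 2652 on replicate 2. The log2 ratios were -0.34 and 0.47, with a mean of 0.07 ± 0.57 (SD, n = 2 arrays) and a limma interval from -0.40 to 0.54 (adjusted p = 0.95). The spots of the probe had SDs of 0.010 and 0.015. The difference between the arrays, -0.81, was the widest among the brightest probes of the 10 markers.

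**Figure D2:**
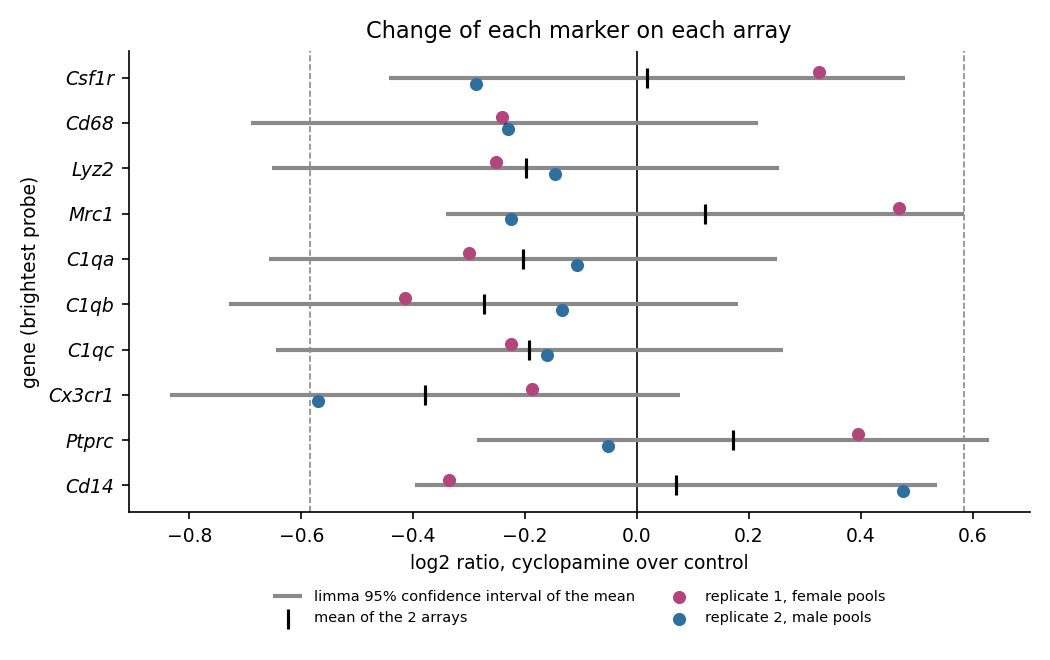
Log2 ratio of cyclopamine over control for the brightest probe of each marker, with a point per array, the mean of both arrays (black tick) and its 95% confidence interval from limma (grey bar). Dashed lines mark 1.5-fold; every interval crosses 0, and no array passes 1.5-fold.

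The sign of a marker on replicate 1 went with the length of its gene. Over 22468 probes with a gene length, the log2 ratio had a Spearman rho of 0.439 with gene length on replicate 1 and of 0.035 on replicate 2. The probes share their arrays and are not independent replicates. The genes with a length were split into 3 classes of 5339. In the short class (up to 12.1 kb) the log2 ratio had a median of -0.21 on replicate 1, against -0.02 on replicate 2, and 43.1% of the genes were below 0 on both arrays. Cd68, Lyz2, the C1q genes and Cd14 are in this class, with lengths from 1.75 kb (Cd14) to 6.08 kb (C1qb). In the long class (over 37.5 kb) the medians were 0.26 and -0.0007, and 34.5% were above 0 on replicate 1 and below 0 on replicate 2. Mrc1 (102.6 kb) and Ptprc (112.9 kb) are in this class. Cx3cr1 (19.6 kb) and Csf1r (25.6 kb) are in the middle class, with medians of 0.05 and 0.01.

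With the trend on gene length removed from each array, the median of the 10 markers was -0.03. The mean log2 ratio then was -0.04 for Cd68, -0.06 for Lyz2, -0.03 for C1qa, -0.15 for C1qb and -0.02 for C1qc. Cx3cr1 remained at -0.36, and Cd14 came to 0.27. The values of Csf1r, Mrc1 and Ptprc were 0.0004, 0.02 and 0.07. On the single arrays, Cd68 (0.11 and -0.18), Lyz2 (0.004 and -0.12), C1qa (0.008 and -0.07) and C1qc (0.08 and -0.12) then had opposite signs. C1qb (-0.19 and -0.11) and Cx3cr1 (-0.15 and -0.58) stayed below 0 on both arrays, and Cd14 (0.02 and 0.53) was above 0 on both. limma again called none of the 10.

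**Figure D3:**
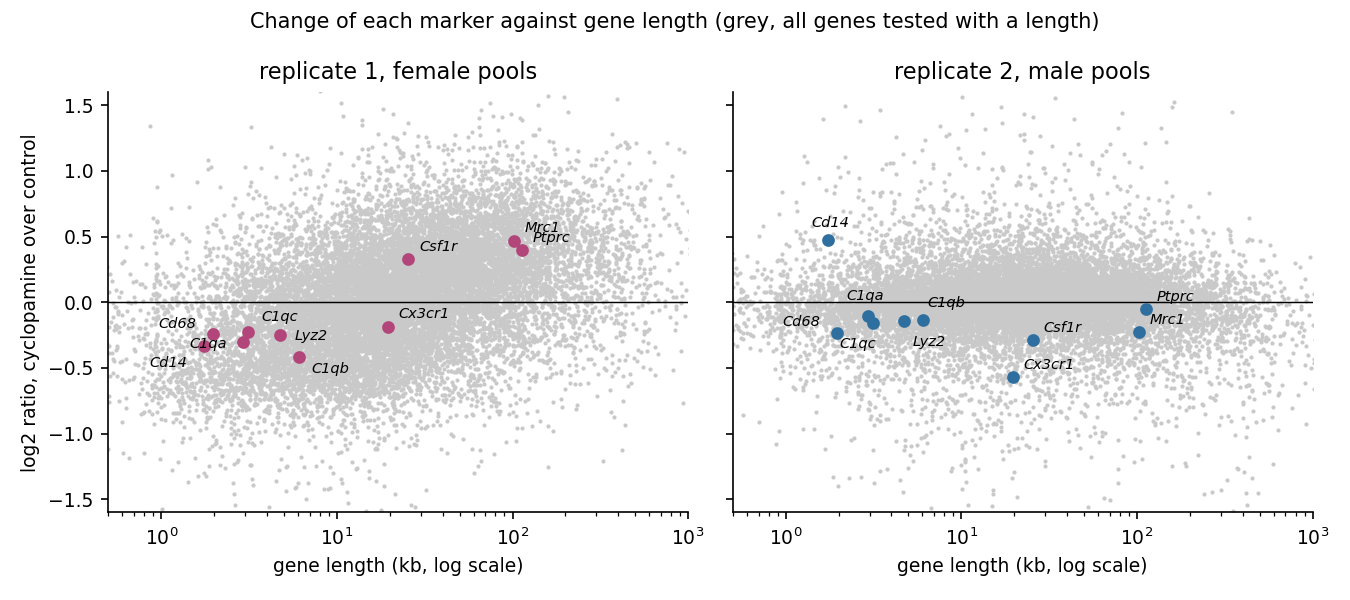
Log2 ratio of cyclopamine over control against gene length (log axis) for all genes tested with a known length (grey) and the brightest probe of each marker (coloured), on replicate 1 (left) and replicate 2 (right). On replicate 1 the 6 short markers and Cx3cr1 lie below 0 and the 3 longest above 0, and on replicate 2 only Cd14 lies above 0; grey points beyond the axes are not drawn.

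The control channels, read after 18 h of culture in solvent, were also compared between the pools. After division by the upper quartile of its array, the control level of C1qa, C1qb and C1qc was higher in the female than in the male pool by 0.73, 0.75 and 0.36 on the log2 scale. Lyz2 and Cd68 were higher by 0.56 and 0.48, Cx3cr1 by 0.36 and Cd14 by 0.23. Csf1r and Ptprc differed by -0.13 and -0.11, and Mrc1 by -0.60. Over all genes tested this difference had a median of -0.04, and its 5th and 95th percentiles were -0.98 and 0.77. The brightest probes of all 10 markers were within this range. The other probes gave 1.01 for Cd68, which lies above it, -0.21 and -0.52 for Csf1r, and 0.35 and -0.58 for Cx3cr1. In the cyclopamine channels the same difference, again for the brightest probes, was 0.53, 0.46 and 0.29 for the C1q genes. For Lyz2, Cd68 and Cx3cr1 it was 0.45, 0.47 and 0.74. It was 0.48 for Csf1r, 0.32 for Ptprc, 0.09 for Mrc1 and -0.59 for Cd14. With 1 pool per sex and a different dye in each, there is no test of these differences.

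Other genes of the myeloid lineage were examined for the same pattern. Of 18 pan-myeloid genes, 0 were called lower and 0 higher, 9 were below 0 on both arrays and 7 above. Beside this and the later list counts, 28.9% of all genes tested were below 0 on both arrays and 28.6% above. Tyrobp, an adaptor of activating receptors, had intensities of 5042 and 3552 on replicate 1 and of 582 and 487 on replicate 2 (log2 ratios -0.51 and -0.26). Fcer1g, the Fc receptor gamma chain, had -0.44 and -0.28, and Aif1, the actin-binding protein IBA1, had -0.57 and -0.29. Their adjusted p values in limma were 0.634, 0.653 and 0.571. Of 15 tissue macrophage genes, 14 were tested and 0 called, with 4 below and 5 above 0 on both arrays. Adgre1, the F4/80 antigen of resident macrophages, had 2934 and 3402 on replicate 1 and 605 and 688 on replicate 2 (0.21 and 0.19). Itgam, the integrin CD11b, had 0.13 and -0.08, and Fcgr1, the high-affinity Fc receptor CD64, had 0.21 and 0.55. Fcgr1 was dim on replicate 2, at 4.80 and 7.03, with 0.5 of its control spots well above background. By gene length, Tyrobp (3.80 kb), Fcer1g (4.78 kb), Aif1 (5.10 kb) and Fcgr1 (11.1 kb) are in the short class. Adgre1 (124.9 kb) and Itgam (55.9 kb) are in the long class. The part of gene length in these ratios was not tested. At an unadjusted p under 0.05 limma took 1 pan-myeloid gene (Cd52, lower) and 2 tissue macrophage genes (Lyve1 lower, Siglec1 higher). The lists thus had both directions among them, and their medians on the arrays were 0.21 and -0.12 for tissue macrophage genes and -0.23 and -0.01 for pan-myeloid genes.

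Of 12 myeloid transcription factors, 11 were tested and 0 called. Spi1, which encodes PU.1, had 296 and 294 on replicate 1 and 41.0 and 32.5 on replicate 2 (-0.01 and -0.33). Irf8, needed for monocytes and dendritic cells, had 0.18 and 0.06, and Irf5, an activator of inflammatory genes, had -0.04 and -0.19. The medians of the list were 0.18 and 0.01, and 0 of its genes had an unadjusted p under 0.05 in limma.

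The partners of the marker proteins were likewise without a call. Of 10 CSF1R ligands and trafficking signals, 9 were tested and 0 called. Csf1 had 6046 and 8404 on replicate 1 and 1297 and 1262 on replicate 2 (0.48 and -0.04). Il34 had 0.06 and 0.57, and Cx3cl1, the ligand of CX3CR1, had 0.22 and 0.14. Il34 was dim on replicate 2, at 6.60 and 9.77, with 0.75 of its control spots well above background. All 10 complement partners of C1q were tested and 0 called. C1ra and C1s1, the proteases that join C1q in the C1 complex, had 0.03 and -0.28, and 0.19 and -0.27. Of 9 genes of the CD14 and TLR4 pathway, 8 were tested and 0 called. Tlr4 had 917 and 1840 on replicate 1 and 243 and 313 on replicate 2 (1.01 and 0.36, adjusted p = 0.174 in limma), and Ly96, which encodes its partner MD-2, had -0.54 and 0.24. Of 15 macrophage activation genes, 12 were tested and 0 called, with 2 below and 4 above 0 on both arrays. At an unadjusted p under 0.05 limma took 0 ligand and 0 complement genes, 2 genes of the TLR4 pathway (Tlr4 and Traf6, higher) and 4 activation genes (Il1b, Ptgs2 and Slc40a1 higher, Cd40 lower).

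Markers of the other leukocytes that these genes could stem from were mostly dim or turned between arrays. The neutrophil genes S100a8, S100a9 and Ly6g had log2 ratios of -0.77, -0.90 and -0.70 on replicate 1 and of 0.10, 0.005 and -0.02 on replicate 2, and 0 of the 8 genes tested in their list were called. Of these 8 genes 3 were below 0 on both arrays, 1 (Mpo, 0.24 and 0.22) was above 0 on both and 4 had opposite signs. The medians of the list were -0.42 and -0.01, and S100a8, S100a9 and Ly6g had the lowest ratios of the 8 genes tested on replicate 1. Of 14 T, NK and B cell markers, 7 stayed at background in both control pools, Cd3d and Cd3g among them, 6 were tested and 0 called. Cd3e had 0.03 and -0.07. Of 10 dendritic cell and MHC class II genes 6 were tested and 0 called, 2 were below 0 on both arrays (H2-Eb1, -0.43 and -0.19, and Cd74, -0.28 and -0.40) and 4 had opposite signs. The medians of the list were -0.10 and -0.24. Zbtb46 had 0.47 and -0.36, and Flt3 and Xcr1 were too dim to test. None of the neutrophil, lymphocyte and dendritic cell genes had an unadjusted p under 0.05 in limma. The median of the 5 mast cell markers tested was -1.03 on replicate 1 and 0.23 on replicate 2. Cpa3, a protease of mast cell granules, had 4325 and 2112 on replicate 1 and 227 and 255 on replicate 2 (-1.03 and 0.17). Tpsb2 and Cma1, a tryptase and a chymase, had -0.96 and 0.38, and -1.24 and 0.23. Mcpt4, another chymase, was called lower, with 207 and 79.7 on replicate 1 and 11.95 and 8.51 on replicate 2 (-1.38 and -0.49, adjusted p = 0.0239 in limma). This call was lost with normexp background correction (adjusted p = 0.499), with the series table (0.556) and with the channels as separate samples (0.991).

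Resident cells of the explant were set beside the markers. The 10 endothelial markers had medians of 0.44 and -0.11 on replicates 1 and 2 and 0 calls. The 9 urothelial markers had medians of 0.15 and 0.18 and 0 calls. The 9 mesenchyme and SMC markers had medians of 0.30 and -0.44 and 0 calls, and Aldh1a2, the LP marker, passed the filter of the study with -0.62 and -0.65. Erythroid genes, which come with blood in the vessels, had 4 of 9 genes tested, with medians of -0.42 and -0.22 and 0 calls. At an unadjusted p under 0.05 limma took 0 endothelial, 0 urothelial and 0 erythroid genes and 4 mesenchyme and SMC genes (Acta2, Cnn1 and Aldh1a2 lower, Pdgfra higher). Their part in the ratios of the 10 markers was not tested.

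**Figure D4:**
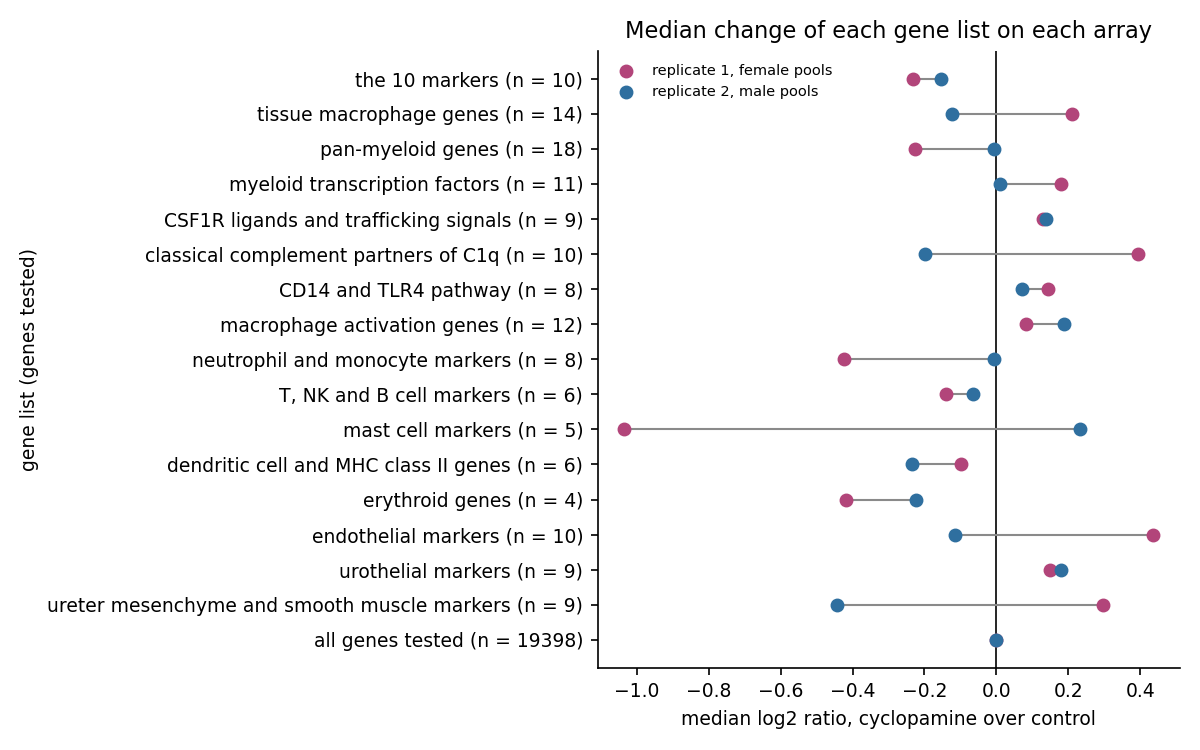
Median log2 ratio of cyclopamine over control on replicate 1 and replicate 2 for the 10 markers, the other lists and all genes tested. The list of SHH targets is not drawn. The number of genes tested is n, and each line joins the arrays. The 10 markers have medians of -0.23 and -0.15, and mast cell markers lie furthest apart, at -1.03 and 0.23.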

How the data were processed

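Intensity values per spot and channel were taken from the deposited scanner output of Agilent Feature Extraction (10.7.3.1 in the submitters' processing notes, 12.2.0.7 in the file headers). Per the file headers, the intensities were background-subtracted, detrended and then dye-normalised with a linear and a LOWESS correction. The deposited log10 ratio (red over green) was used only to check in which direction the series table runs. The authors' deposited series table holds a score that, judged by its values, is a linear fold change with a sign, rounded to a decimal. The deposited values marked as other are flags for background, outliers and saturation. The methods give ethanol as the solvent of cyclopamine, whereas the labels give DMF for the control.

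Control spots and outlier spots (2.89% and 3.15%) were left out, and up to 4 spots per probe were averaged on the log2 scale. No spot was saturated. Of the control signals 69.6% (replicate 1) and 65.1% (replicate 2) exceeded background clearly. The brightest of several probes stood for a gene. Names followed the RefSeq table by accession for 28328 of 39429 probes. Ratios were turned to cyclopamine over control. R 4.3.3 with limma 3.58.1 (lmFit followed by eBayes, +1 and -1 for dye orientation, no intercept) tested probes with at least 0.5 of spots well above background in a condition on both arrays, adjusted after Benjamini-Hochberg, and probes with an adjusted p under 0.05 were called. With 1 residual degree of freedom the variance rested mostly on the pooled prior. The step was tested on simulated data. The control and the treated channel of an array carry the same replicate number, so the array is the block. Arrays of separate pools were taken as replicates, and their number limits the precision.

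The markers and lists were chosen with earlier results of these data known. Named were the 10 markers, the first 3 genes of each leukocyte list, and list genes called or past the filter. Csf1, Il34, Cx3cl1, C1ra, C1s1, Tlr4 and Ly96 were named for their role beside a marker after their values had been seen, as were Mpo, H2-Eb1, Cd74 and genes listed by an unadjusted p. Classes of gene length were also chosen after seeing the data.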

Additional observations from a re-analysis of the deposited data

Results flagged for a closer look

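Values of several markers and lists pointed one way on replicate 1 (female pools) and the other way on replicate 2 (male pools). With 1 array per sex these differences were not tested, and sex, dye orientation and replicate cannot be told apart. The log2 ratio of replicate 1 minus that of replicate 2 was 0.61 for Csf1r, 0.69 for Mrc1 and 0.45 for Ptprc, which were above 0 on replicate 1 and below 0 on replicate 2. It was -0.81 for Cd14, which was below 0 on replicate 1 and above 0 on replicate 2.

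Among the lists, the difference of the medians was 0.33 for tissue macrophage genes, 0.59 for the complement partners of C1q, 0.55 for endothelial markers and 0.74 for ureter mesenchyme and SMC markers, all above 0 on replicate 1 and below 0 on replicate 2. It was -1.27 for mast cell markers, which were below 0 on replicate 1 and above 0 on replicate 2.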

How the results depend on the processing

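Under the 10 alternatives tried for the filter of the study, 0 markers passed. A 2-fold change and a control intensity over 200 are stricter than the filter and could only give 0. By limma the 10 markers gave 0 calls in either direction under all 8 alternatives that carry a test. Adjusted p values of the markers ranged from 0.503 to 1 over these alternatives. With no replicate block, each channel being a sample of its own, limma called 0 markers and 1 of the 25975 probes. Of 80 mean log2 ratios of the markers under these alternatives 79 kept their sign, and with the series table the mean of Csf1r was 0. Signs on the single arrays are not part of this count. With the authors' series values 1 marker (Cd68) had an unadjusted p under 0.05. When an array was left out, the log2 ratio ranged from -0.288 to 0.325 for Csf1r, from -0.225 to 0.469 for Mrc1, from -0.0511 to 0.394 for Ptprc and from -0.336 to 0.475 for Cd14, the only markers that changed sign.

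The median of the markers was -0.20. It was -0.0266 with the gene length trend removed, and -0.15 to -0.23 when an array was left out. With the gene length trend removed, medians were 0.23 for CSF1R ligands and trafficking signals, 0.17 for the CD14 and TLR4 pathway, 0.12 for macrophage activation genes, 0.0389 for T, NK and B cell markers, -0.15 for erythroid genes and 0.25 for urothelial markers. They were -0.0889 for neutrophil and monocyte markers (-0.26 with the trend kept) and -0.12 for pan-myeloid genes. Tissue macrophage genes had 0.13, myeloid transcription factors 0.13, mast cell markers -0.34 and dendritic cell and MHC class II genes -0.12. For CSF1R ligands and trafficking signals the median was 0.13 with normexp correction and 0.14 without a filter on dim probes. When an array was left out, the median ranged from -0.12 to 0.21 for tissue macrophage genes, 0.13 to 0.14 for CSF1R ligands and trafficking signals, 0.0707 to 0.144 for the CD14 and TLR4 pathway, 0.0824 to 0.188 for macrophage activation genes, -0.140 to -0.0664 for T, NK and B cell markers, 0.15 to 0.18 for urothelial markers and -1.99 to -1.13 for SHH targets. The cause was not tested. Over all probes, limma called 200 lower and 118 higher, 42 and 12 with normexp correction, 284 and 255 of 22468 with the length trend removed, 261 and 216 of 39428 without a filter on dim probes, and 0 and 0 with the series table, where 1869 probes had an unadjusted p under 0.05.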
